A study of Mus musculus with 8 samples.

Results

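The genes described here are 9 genes of trophoblast and of the uterine decidua, measured as a check for tissue from outside the embryo in RNA from whole mouse embryos at embryonic day 9.5. They were chosen by symbol, as Prl8a2, Prl3c1, Prl3d1, Prl3b1, Prl2c2, Tpbpa, Plac1, Gcm1 and Rhox5, and all 9 were found among the 41709 symbols of the deposited table. RNA was sequenced from 4 embryos with only wild-type Smo (WT, Smo+/+) and 4 homozygous for the K399A substitution (mutant, Smo K399A/K399A), all from matings of heterozygous parents. The product of Smo, Smoothened, sits in the membrane and passes the Hedgehog signal on inside the cell. Each embryo was dissected, frozen in a tube of its own and sequenced as its own library. Several litters were used, and neither the litter of an embryo nor the membranes left on it are given in the labels. The dams of both groups were heterozygous for the substitution.

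At this stage the embryo lies inside its yolk sac, next to trophoblast of its own making and to decidua made by the mother. Trophoblast giant cells line the contact with the uterus and secrete hormones of the prolactin family, spongiotrophoblast lies behind them, and the chorion and labyrinth form the exchange surface with the mother's blood. The decidua is the transformed stroma of the uterus, which makes prolactin-family hormones of its own and holds many uterine natural killer cells. None of these is a tissue of the embryo itself, so their transcripts mark what was carried along at dissection or what the embryo's own cells make at a low level. In bulk RNA more cells of a type and more RNA per cell cannot be told apart.

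Values are TPM, a level per transcript length that is scaled to the same total in every library. Genes can thus be compared with each other, while between embryos a value is a share of the library's total. Comparisons with median-ratio scaling are given below. From 59.97 to 61.45 M reads stood behind each library, as recovered from the steps between the TPM values. Tissues of the embryo were present in each library: all 10 markers of the embryo itself were at 1 TPM or more. Among them are Sox2 of neural tissue, Myl7 of heart muscle and Meox1 of somites. Their levels were not alike, and the lowest value was 3.65 TPM for Tbx6 in mutant 1, against 13.3 to 30.2 TPM in WT. Mutant 1 was also the lowest embryo for Sox2, Pax6, Pax3, T and Meox1, and the highest for Myl7 and Tnnt2. Mutants 3 and 4 had the fewest symbols above 0, at 20148 and 19947, against 20439 to 20800 in the other 6 libraries. Mutants 1 and 3 and WT 2 and 4 had Y-linked transcripts, and the other 4 embryos had Xist, so each genotype held 2 of each sex. Of the 9 genes, 6 reached 1 TPM in at least 4 embryos and entered the fit of 13596 genes. The other 3, Prl3c1, Tpbpa and Gcm1, were read from a fit without that filter, over 23993 genes.

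Of the 9 genes, 5 belong to the prolactin family, and some have near-identical copies beside them, which bears on how their reads could be assigned. On build GRCm38, Prl3d1 lies on chromosome 13 at 27094190 to 27100258, Prl3c1 at 27196659 to 27203749, Prl3b1 at 27241847 to 27249683 and Prl8a2 at 27345673 to 27354216, all on the plus strand. Prl2c2 lies apart from them on the minus strand of the same chromosome, at 12996125 to 13005383. The coding sequence of Prl3d1, of 675 bases, was 97.9% identical to that of Prl3d2 and 98.7% identical to that of Prl3d3. Prl2c2 and Prl2c3 were 99.6% identical over 675 coding bases, whereas Prl8a2 and Prl3c1, both genes of the decidua, were 47.1% identical. To show how little separates the copies, coding bases 361 to 450 of Prl3d1 and the matching bases of its copies are given, from the GENCODE M21 transcripts, with the positions at which any of the 3 differ in capitals.
Prl3d1: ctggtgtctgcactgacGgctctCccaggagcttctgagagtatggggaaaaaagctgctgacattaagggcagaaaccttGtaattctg
Prl3d2: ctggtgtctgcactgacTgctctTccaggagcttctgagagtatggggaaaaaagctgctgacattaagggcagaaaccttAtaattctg
Prl3d3: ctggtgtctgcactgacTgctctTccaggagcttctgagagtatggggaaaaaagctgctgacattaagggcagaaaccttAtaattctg
The first 90 coding bases of Prl2c2 and Prl2c3 differ at 1 base, again in capitals.
Prl2c2: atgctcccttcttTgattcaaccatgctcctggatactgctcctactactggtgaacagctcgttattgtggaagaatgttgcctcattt
Prl2c3: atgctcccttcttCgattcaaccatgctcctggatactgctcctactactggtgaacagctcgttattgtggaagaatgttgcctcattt
The first 90 of the 723 coding bases of Prl8a2, which reached the highest level of the 9 genes in any embryo, are given for contrast.
Prl8a2: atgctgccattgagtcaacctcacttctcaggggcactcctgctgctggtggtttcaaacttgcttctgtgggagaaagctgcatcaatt
How the authors' counting shared reads among such copies is not given in the sources used here, so the values of Prl3d1 and Prl2c2 are uncertain as values of single genes. Over the 8 embryos Prl3d1 had 893 recovered reads, and Prl3d2 and Prl3d3 had 79 together.

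Promoter sequences from RefSeq (GRCm38.p6) were found for 7 of the 9 genes. They are given for Prl3d1 and Tpbpa, which were both highest in mutant 2, and for Rhox5, which was highest in mutant 1, as the 250 bases before the annotated start. Capitals mark GATAA or its reverse complement TTATC, the core that GATA factors bind, and TGANTCA, the core that AP-1 factors bind, which is its own reverse complement, and no match of one overlaps a match of the other.
Prl3d1 (chr13:27093939-27094188, plus strand): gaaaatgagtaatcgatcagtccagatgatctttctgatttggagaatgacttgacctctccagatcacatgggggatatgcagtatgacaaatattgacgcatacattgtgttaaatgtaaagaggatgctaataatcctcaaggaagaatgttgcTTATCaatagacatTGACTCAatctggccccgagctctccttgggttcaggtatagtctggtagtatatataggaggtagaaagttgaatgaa
Tpbpa (chr13:60941937-60942186, minus strand): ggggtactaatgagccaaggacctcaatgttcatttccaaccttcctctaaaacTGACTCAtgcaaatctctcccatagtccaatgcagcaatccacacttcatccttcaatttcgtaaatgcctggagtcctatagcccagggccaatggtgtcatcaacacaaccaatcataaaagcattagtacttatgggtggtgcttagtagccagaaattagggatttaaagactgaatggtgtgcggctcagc
Rhox5 (chrX:37754358-37754607, plus strand): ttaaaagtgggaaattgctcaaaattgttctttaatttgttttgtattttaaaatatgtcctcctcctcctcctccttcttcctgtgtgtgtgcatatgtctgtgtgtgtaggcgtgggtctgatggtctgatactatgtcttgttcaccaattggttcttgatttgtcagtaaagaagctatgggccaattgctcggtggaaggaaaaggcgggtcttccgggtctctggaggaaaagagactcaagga
The Prl3d1 window held 1 match of each motif, the Tpbpa window 1 match of TGANTCA, and the Rhox5 window none. Among the windows not printed, Prl3c1, also highest in mutant 2, had 0 matches of TGANTCA in both of its entries. Prl3b1, Plac1 and Gcm1, highest in mutant 1, had 0 as well. GATAA had 1 match in 1 entry of Prl3c1 and in 1 entry of Plac1. Over all 32851 promoter entries of the same length, 22.6% held GATAA and 6.75% held TGANTCA, so a single match is a description only. The RefSeq start of Rhox5 lies far upstream of the start that GENCODE M21 gives: its window ends at 37754607, and the GENCODE gene begins at 37804842. The Tpbpa window overlaps the GENCODE gene, which begins at 60941984 on the minus strand.

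Prl8a2, which encodes the decidual prolactin-related protein, reached the highest level of the 9 genes, in mutant 2, and varied most among those found in all 8 embryos. It was at 15.3, 1.20, 9.89 and 1.73 TPM in WT 1 to 4 and at 49.2, 291, 22.2 and 7.66 TPM in mutants 1 to 4. Mutant 2 stood 5.92 times above the next embryo, mutants 1, 2 and 3 lay above every WT embryo, and mutant 4 lay among the WT embryos. From the lowest embryo to the highest the range was 242-fold, from 21 to 4975 reads. The log2 fold change of TPM + 1 in mutants was 2.86 ± 1.03 (SE), with a 95% confidence interval of 0.54 to 5.18, and it did not pass the test (limma adjusted p = 0.317; exact permutation p = 0.0857). Without mutant 2 it was 1.92, and without mutant 4 it was 3.61.

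Prl3c1, another prolactin-family gene of the decidua, was close to 0 throughout except in the same embryo. It had 2, 0, 1 and 1 reads in WT 1 to 4 and 4, 31, 3 and 0 reads in mutants 1 to 4, and reached 1.83 TPM in mutant 2. A count of 0 allows up to 0.174 TPM in WT 2 and 0.169 TPM in mutant 4. Mutants 1 and 3, at 0.230 and 0.162 TPM, also lay above the highest WT value, 0.115 TPM, each on 3 or 4 reads against 2. Mutant 3 cannot be placed against WT 2 at this depth, as it lies under the 0.174 TPM that the 0 of WT 2 allows. The log2 fold change over all 8 embryos was 0.43 ± 0.29 (SE; limma without filter, adjusted p = 0.602), and without mutant 2 it was 0.09 (adjusted p = 0.562). Of the receptors for uterine steroid hormones, Pgr, the progesterone receptor, was at 0.517 to 0.783 TPM in WT and 0.676 to 0.895 TPM in mutants, and Esr1, the oestrogen receptor, stayed at or under 0.169 TPM, its value in mutant 2.

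**Figure D1:**
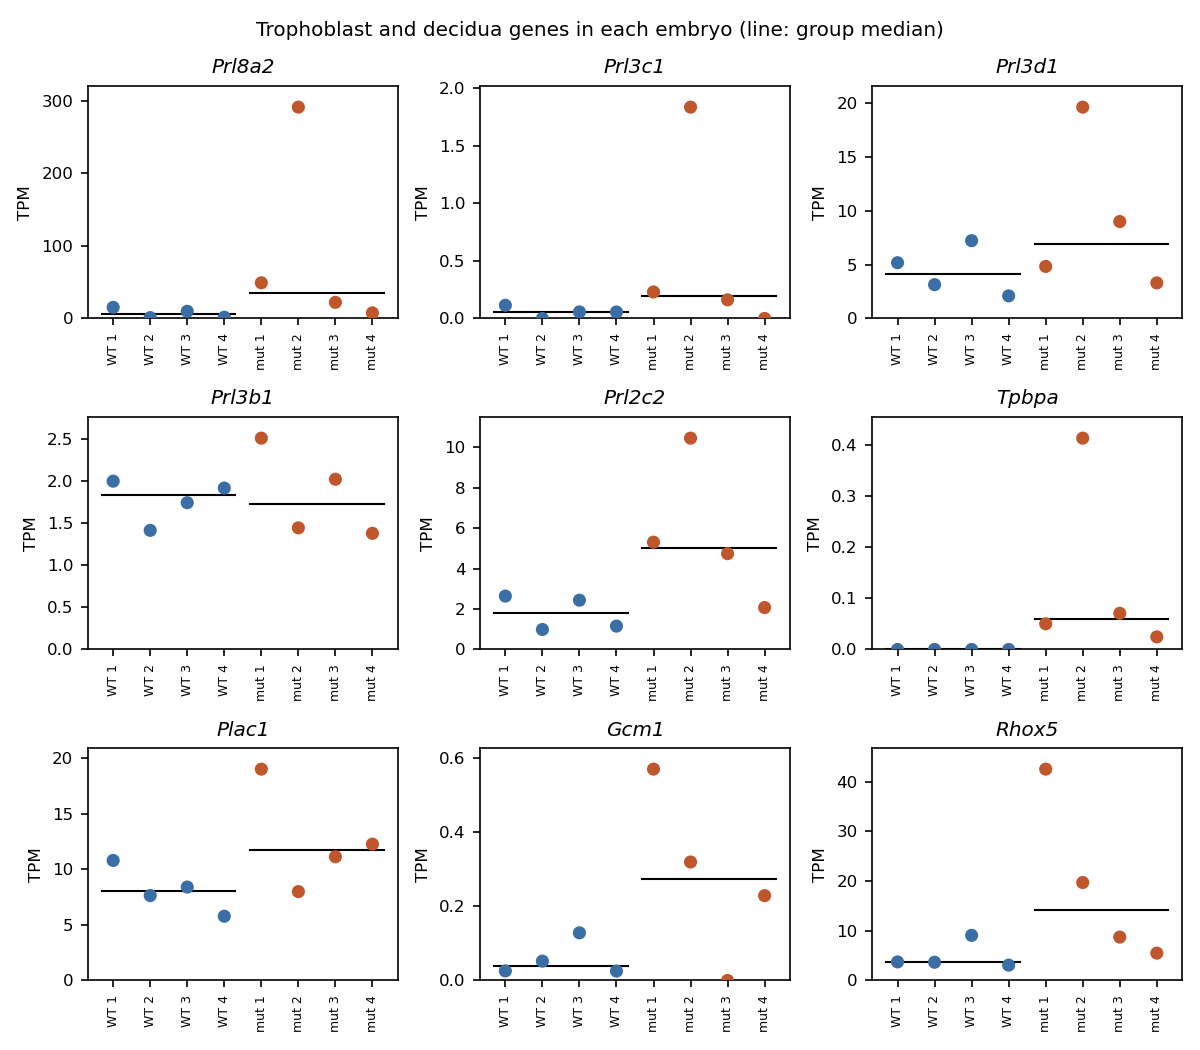
Each panel plots 1 gene, with TPM on a linear axis from 0 for each of the 4 WT (blue) and 4 mutant (orange) embryos and a line at each group's median. Mutant 2 is highest for Prl8a2, Prl3c1, Prl3d1, Prl2c2 and Tpbpa, and mutant 1 is highest for Prl3b1, Plac1, Gcm1 and Rhox5.

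Among the hormones of trophoblast giant cells, Prl3d1 and Prl2c2 were highest in mutant 2 as well, over a narrower range. Prl3d1, a placental lactogen, was at 5.17, 3.14, 7.22 and 2.10 TPM in WT 1 to 4 and at 4.83, 19.6, 8.99 and 3.3 TPM in mutants 1 to 4. The groups overlapped, with mutants 1 and 4 inside the range of WT. On the log2 scale it differed by 0.75 ± 0.47 (SE; limma adjusted p = 0.470), and 0.32 without mutant 2.

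Prl2c2, which encodes a proliferin, was at 2.64, 0.988, 2.44 and 1.15 TPM in WT 1 to 4 and at 5.30, 10.4, 4.74 and 2.07 TPM in mutants 1 to 4. Only mutant 4 lay within the WT range. Its log2 fold change of 1.14 ± 0.37 (SE; limma adjusted p = 0.300) became 0.83 without mutant 2. Its copy Prl2c3 followed it, at 1.66 to 6.64 TPM in WT and 3.09 to 17.3 TPM in mutants, so that Prl2c3 stood at 1.31 to 2.72 times Prl2c2 in every embryo.

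Prl3b1, a second placental lactogen whose strong expression belongs to later pregnancy, differed little between embryos. It was at 2.00, 1.41, 1.74 and 1.92 TPM in WT 1 to 4 and at 2.51, 1.44, 2.02 and 1.38 TPM in mutants 1 to 4. Its range was 1.82-fold over all 8 embryos, and mutant 2, the highest embryo for the other 4 prolactin genes, was among the 3 lowest. The log2 fold change of 0.02 had a 95% confidence interval of -0.31 to 0.36 (limma adjusted p = 0.953), and its sign turned without mutant 1, to -0.086, among other settings.

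The ratio between decidual and giant cell hormones was not constant. Prl8a2 stood at 2.96, 0.384, 1.37 and 0.825 times Prl3d1 in WT 1 to 4 and at 10.2, 14.9, 2.47 and 2.32 times Prl3d1 in mutants 1 to 4, a range of 38.7-fold. Mutants 1 and 2 thus had more Prl8a2 for their Prl3d1 than the other 6 embryos.

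The wider prolactin family showed the same embryo on top. Of 25 family symbols in the table, 20 had a read, and 16 of these 20 were highest in mutant 2. Of all genes with a value, 44% were highest in mutant 1 or mutant 2, and the share for mutant 2 alone was not counted. Near-identical copies are among the 16, and some rest on few reads, such as Prl8a1 on 3 in mutant 2. Prl2b1 had 1 read in mutant 2, as in WT 4, mutant 1 and mutant 3. Beside the 5 genes above, 5 more reached 1 TPM in an embryo, namely Prl2c3, Prl4a1, Prl7a1, Prl2c5 and Prl2a1. Prl4a1 was at 0.299 to 2.00 TPM in WT and at 1.65, 14.8, 4.35 and 0.659 TPM in mutants 1 to 4. Prl7a1 was at 0.399 to 1.24 TPM in WT and reached 4.00 TPM in mutant 2. The family sum was 31.9, 10.4, 31.8 and 9.70 TPM in WT 1 to 4 and 74.6, 367, 52.9 and 21.2 TPM in mutants 1 to 4. None of the 25 passed the test (limma, also without filter).

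Tpbpa, the classic marker of ectoplacental cone and spongiotrophoblast (minus strand of chromosome 13, 60938492 to 60941984), was barely present. It had 0 reads in each of the 4 WT libraries and 2, 16, 3 and 1 reads in mutants 1 to 4. With reads pooled over each group, mutants stood at 7.29 times a floor of 3 reads for WT, and at 2.64 times without mutant 2, on 6 reads. These ratios leave out the counting error of the mutants and the spread between embryos. Of the 9 genes it alone had groups apart by recorded value, against 2.56% of all genes with a value and 3.63% of tested genes in this direction. A 0 allows up to 3 reads, and mutants 1, 3 and 4 had no more than that. These mutants thus cannot be placed against single WT embryos at this depth. The exact permutation p of Tpbpa, which takes each 0 as it stands, was 0.0286, which 4 embryos against 4 cannot go below. The fit without filter gave a limma adjusted p of 0.521, and its highest value was 0.412 TPM.

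Most other spongiotrophoblast genes stayed under 1 TPM. Of 18 genes on that list, 5 were at 0 in every embryo and 2 reached 1 TPM, Prl7a1 and Phlda2. Phlda2, an imprinted gene that restrains placental growth and is not limited to placenta, was at 10.3 to 43.6 TPM in WT and 37.1 to 68.0 TPM in mutants (limma adjusted p = 0.324). Of 6 pregnancy-specific glycoprotein genes, 4 had a read, and none exceeded 0.105 TPM.

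Plac1, an X-linked trophoblast gene (minus strand, 53069995 to 53240111), had the steadiest level after Prl3b1. It was at 10.8, 7.64, 8.41 and 5.78 TPM in WT 1 to 4 and at 19, 8.0, 11.1 and 12.3 TPM in mutants 1 to 4. Here mutant 1 was highest, and mutant 2 lay within the WT range. The log2 fold change was 0.54 ± 0.24 (SE), with a 95% confidence interval of -0.003 to 1.08 (limma adjusted p = 0.370), and 0.33 without mutant 1.

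Gcm1, the transcription factor that starts branching of the chorion into labyrinth (plus strand of chromosome 9, 78051924 to 78065624), had 1, 2, 5 and 1 reads in WT 1 to 4. It had 22, 12, 0 and 9 reads in mutants 1 to 4, where the 0 of mutant 3 allows up to 0.0727 TPM. Mutants 1, 2 and 4 thus lay above all WT embryos, at 0.569, 0.319 and 0.229 TPM, and mutant 3 cannot be placed against WT 1, 2 and 4 at this depth (limma without filter, adjusted p = 0.489).

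Among 9 genes of chorion and labyrinth, the syncytins, which fuse trophoblast cells, were close to 0: Syna was at most 0.158 TPM and Synb at most 0.275 TPM, both in WT embryos. Esx1, a placental homeobox gene, was at 0.0543 to 0.856 TPM in WT and at 3.50, 2.47, 0.985 and 0.317 TPM in mutants 1 to 4. Rhox6, a placental homeobox gene near Rhox5, was at 0.467 to 2.63 TPM in WT and 0.676 to 5.01 TPM in mutants. Dlx3, which is also expressed in surface ectoderm, was at 14.0 to 18.8 TPM in WT and 11.3 to 17.9 TPM in mutants. The lysosomal regulator Tfeb was at 1.26 to 1.45 TPM and 1.31 to 2.76 TPM. None of the 9 passed the test (limma, also without filter).

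Rhox5, an X-linked homeobox gene of trophoblast and of extraembryonic endoderm (plus strand, 37804842 to 37808876), followed an order of its own. It was at 3.73, 3.67, 9.07 and 3.09 TPM in WT 1 to 4 and at 42.5, 19.7, 8.73 and 5.5 TPM in mutants 1 to 4. Mutants 1 and 2 lay above every other embryo, and WT 3 stood above mutants 3 and 4. The difference between groups was 1.49 ± 0.54 in log2 (SE; 95% confidence interval 0.27 to 2.71; limma adjusted p = 0.317; exact permutation p = 0.0857), and it was 0.99 without mutant 1.

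The 5 embryos with the most Rhox5 were also the 5 with the most transcripts of yolk sac endoderm, in the same order. Summed over 19 yolk sac genes, WT 1 to 4 had 26.6, 55.9, 302 and 31.6 TPM, mutants 1 to 4 had 1544, 952, 269 and 180.5 TPM, and all 19 were highest in mutant 1. The share of all genes with a value that were highest in mutant 1 alone was not counted. Afp, the fetal albumin-like protein, was at 320 TPM in mutant 1, 221 TPM in mutant 2 and 51.9 TPM in WT 3, against 1.95 TPM in WT 1. Apoa1, Rbp4, Ttr and Apoa2, carrier proteins of lipid, retinol, thyroid hormone and lipid, and Apom were also each highest in mutant 1. Whether the yolk sac transcripts had a part in the level of Rhox5 was not tested. The yolk sac sum was 7.12 to 33.3 times Rhox5 in WT and 30.8 to 48.3 times Rhox5 in mutants.

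**Figure D2:**
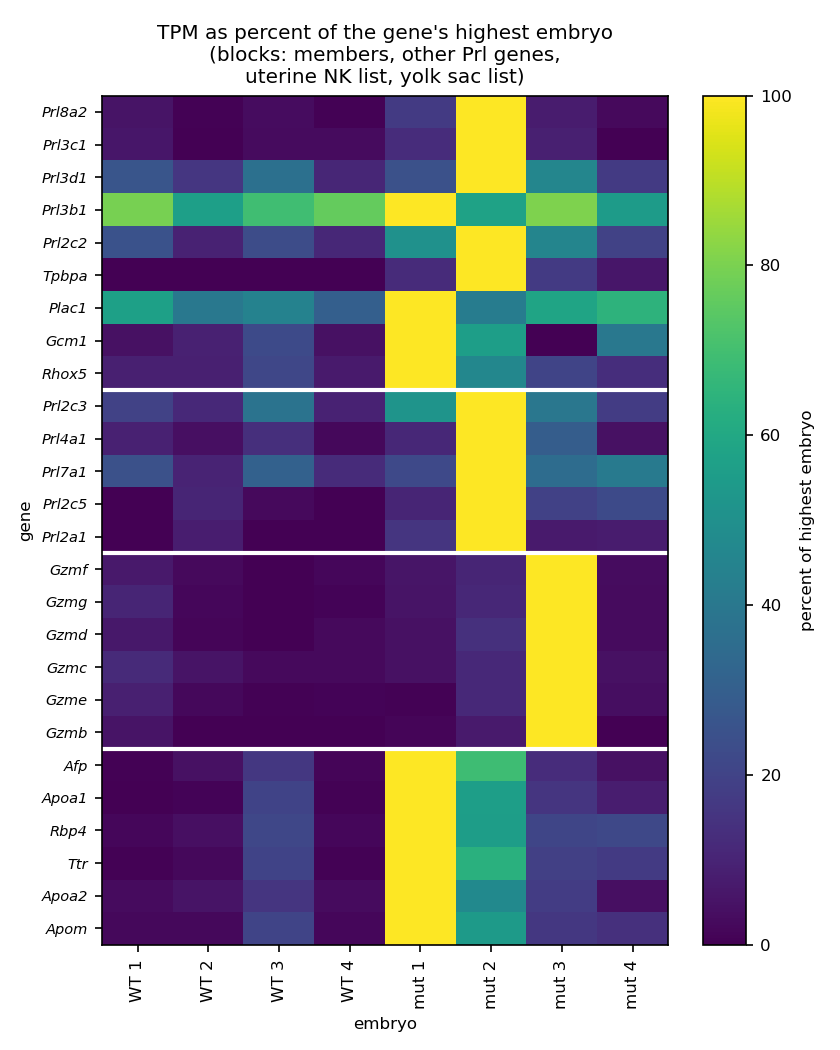
The map gives each gene's TPM as a percent of its own highest embryo, for the 8 embryos in columns, with blocks for the 9 genes, the 5 other prolactin-family genes at 1 TPM or more, and the 6 most abundant genes of the uterine natural killer cell and yolk sac lists. The highest embryo is mutant 2 for all 5 other prolactin-family genes, mutant 3 for the 6 granzymes and mutant 1 for the 6 yolk sac genes.

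Markers of another cell of the decidua, the uterine natural killer cell, peaked in yet another embryo. Summed over 10 such genes, WT 1 to 4 had 8.39, 2.48, 0.647 and 1.70 TPM, and mutants 1 to 4 had 4.23, 11.0, 94.4 and 3.39 TPM. Mutant 3 was highest for 8 of the 9 genes with a read, among them Gzmf at 21.6 TPM, Gzmg at 21.3 TPM, Gzmd at 21.2 TPM, Gzmc at 13.8 TPM, Gzme at 11.1 TPM and Gzmb at 2.72 TPM. These encode granzymes, proteases of killer cell granules, and in mutant 2 the same 6 genes were at 0.191 to 2.91 TPM. Ncr1, the receptor that defines natural killer cells, was at 0 in every embryo, and Klrd1 was at or under 0.0835 TPM. None of the 10 passed the test (limma, also without filter). The share of all genes with a value that were highest in mutant 3 was not counted. S100a8, a calcium-binding protein of neutrophils, was at 7.22 TPM in mutant 3, 5.31 TPM in mutant 2, 1.16 TPM in mutant 1, and at 0 to 0.384 TPM in the other 5 embryos, while the neutrophil genes S100a9, Ngp and Camp were at or near 0.

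**Figure D3:**
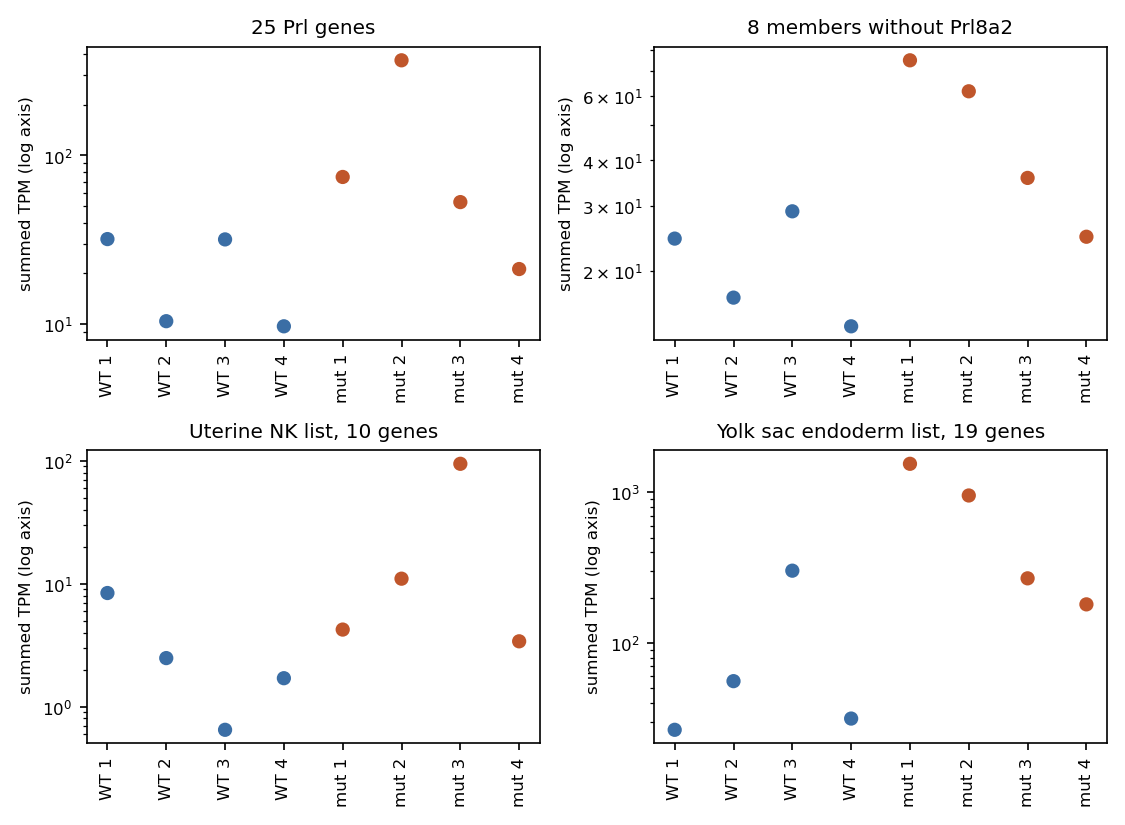
Each panel plots a summed TPM on a logarithmic axis for the 4 WT (blue) and 4 mutant (orange) embryos. The prolactin family is highest in mutant 2, at 367 TPM, the natural killer cell list in mutant 3, at 94.4 TPM, and the yolk sac list in mutant 1, at 1544 TPM.

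Decidua comes from the mother and therefore carries 2 X chromosomes, and Xist was read in the embryos with Y-linked transcripts for this reason. Xist, the RNA that coats the inactive X chromosome, was at 22.4 to 91.9 TPM in the 4 embryos without Y-linked transcripts. In the embryos with Y-linked transcripts it was at 0.0150 TPM in WT 2, 0.00584 TPM in WT 4, 0.0239 TPM in mutant 1 and 0.0195 TPM in mutant 3. These rest on 5, 2, 8 and 7 reads. The highest of them, in mutant 1, was 0.106% of the lowest Xist level among the embryos without Y-linked transcripts. Xist at counts this low was not used to order the embryos. Mutant 2 itself had Xist, so this measure does not apply to it. Within the embryos with Y-linked transcripts, Prl8a2 was at 1.20 and 1.73 TPM in WT and 49.2 and 22.2 TPM in mutants. Within the embryos with Xist it was at 15.3 and 9.89 TPM in WT and at 291 and 7.66 TPM in mutants, and these overlapped. The X-linked Plac1 was at 7.64 and 5.78 TPM in WT and 19 and 11.1 TPM in mutants with Y-linked transcripts, and at 10.8 and 8.41 TPM in WT and 8.0 and 12.3 TPM in mutants with Xist.

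For 5 of the 9 genes, the genes with the most similar pattern over the 8 embryos were listed. They were ranked by Pearson r of log2(TPM + 1) among the tested genes, with the 9 genes themselves and loci without a gene name left out. The ranking is a description of these libraries without a test, since the highest of up to 13596 values are picked. For Prl8a2 these were Klf9 (r = 0.974), Erv3 (0.960), Prl2c3 (0.947), Htra1 (0.944) and Angpt4 (0.941). Erv3, an endogenous retroviral gene, was at 0.112 to 1.88 TPM in WT and at 13.7, 81.7, 2.23 and 0.964 TPM in mutants 1 to 4, and Htra1, a secreted protease, at 2.00 to 3.59 TPM and at 7.32, 19.7, 3.79 and 3.10 TPM. In mutant 2 both thus had the peak that Prl8a2 had.

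For Prl3d1 the most alike were Prl4a1 (r = 0.982), Cyp11a1 (0.943), Angpt2 (0.930), Junb (0.930) and Prl2c3 (0.908). Cyp11a1, the enzyme that opens steroid synthesis, was at 0.262 to 1.40 TPM in WT and at 1.1, 3.64, 2.47 and 0.251 TPM in mutants 1 to 4. For Prl2c2 they were Angpt2 (0.962), Klf9 (0.960), Prl2c3 (0.957), Angpt4 (0.947) and Lgals3 (0.947).

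For Plac1 they were Prr5 (r = 0.978), Derl3 (0.970), Pdia6 (0.969), Krt18 (0.968) and Krt8 (0.967). Krt8 and Krt18, the keratin pair of simple epithelia, were at 233 to 321 and 173 to 238 TPM in WT and at 267 to 520 and 215 to 369 TPM in mutants, highest in mutant 1. For Rhox5 they were Slc2a2 (0.993), Cfi (0.993), Car7 (0.990), Ctsh (0.989) and Pdzk1 (0.988). Slc2a2, a glucose transporter, was at 0.0182 to 1.49 TPM in WT and at 8.19, 4.61, 1.62 and 0.465 TPM in mutants 1 to 4. Without the 2 embryos farthest from the member's median these 25 values of r ranged from 0.719 to 0.989.

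The remaining trophoblast lists were mixed. All 14 giant cell genes had a value, with a positive log2 fold change in each, beside 41.2% of all genes in the fit without filter. These are not 14 separate observations, as near-identical copies are among them. Ctsq rested on 1 read, in mutant 2, and Prl3b1 was at 0.02. None of the 14 passed the test (limma, also without filter). Hand1, which giant cells need but which is also a heart and lateral mesoderm gene, was the most abundant, at 60.9 to 87.7 TPM in WT and 87.5 to 168 TPM in mutants, highest in mutant 1. Hsd3b6, an enzyme of steroid synthesis, was at 1.71 to 7.82 TPM and 3.41 to 8.01 TPM. Of 5 genes of trophoblast stem cells, Eomes, Elf5 and Esrrb stayed under 1 TPM in every embryo. Cdx2, also a tail bud gene, was at 18.0 to 51.0 TPM in WT and 22.5 to 62.8 TPM in mutants, and Tfap2c, also an ectoderm gene, at 8.77 to 10.2 TPM and 6.99 to 10.6 TPM.

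Over the 9 genes together, limma called 0 in mutants against WT, beside 0% of the 13596 tested genes and 0% of the 23993 in the fit without filter. An unadjusted p under 0.05 was reached by 3 of the 9, Prl2c2, Prl8a2 and Rhox5, all higher in mutants. In that direction 5.55% of tested genes reached it, and 4.3% without filter. With limma voom on recovered reads, 0 were called and 3 were again under 0.05 unadjusted. These 3 were Tpbpa, Prl2c2 and Rhox5, without Prl8a2 (voom adjusted p = 0.358). All 9 had a positive log2 fold change, beside 37.7% of tested genes and 41.2% without filter, and the former share became 50.5% with median-ratio scaling. The median log2 fold change of the 9 was 0.54 in the fit without filter, against -0.02 for all genes with a value. Without mutants 3 and 4, 9 of 9 were positive and 0 called, and without mutants 1 and 2, 8 of 9 and 0. All 9 genes were highest in mutant 1 or mutant 2, as were 44% of all genes with a value, and 57.1% were highest in a mutant.

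**Figure D4:**
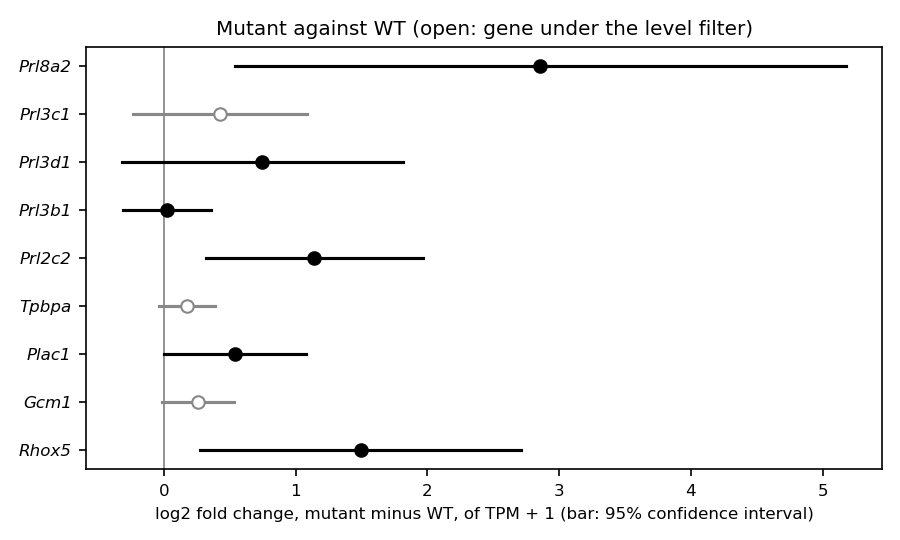
Points give the log2 fold change of TPM + 1, mutant minus WT, for the 9 genes, and bars give the 95% confidence interval from limma. Open points are the 3 genes under the level filter, taken from the fit without filter. The intervals of Prl8a2, Prl2c2 and Rhox5 lie above 0 before adjustment, and no gene passed after it.

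The sum of the 9 genes was a small part of each library. It came to 39.8, 18.1, 39.0 and 15.8 TPM in WT 1 to 4 and to 124, 353, 58.0 and 32.4 TPM in mutants 1 to 4, at most 0.0353% of a library. Prl8a2 made up 82.5% of the sum in mutant 2 and 6.65% in WT 2. Without Prl8a2 the sum was 14.1 to 29.1 TPM in WT and 75.0, 61.8, 35.8 and 24.8 TPM in mutants 1 to 4, so that mutant 1 came out highest and mutant 4 lay within the WT range.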

How the data were processed

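The authors deposited 1 table of TPM per gene symbol for 8 embryos. The build is GRCm38 (mm10), per the submitters' processing notes; for aligner, counting program, annotation and strand setting: not given in the sources used here. Per the labels' protocols, TruSeq RNA libraries were run on a NovaSeq. All columns were matched by name, with 0 left over. TPM times merged exon length (GENCODE M21) falls in whole steps of 1 read: of 23993 symbols with a value, 93.62% gave whole reads within 0.02 in all libraries and 6.28%, Rhox5 among them, did so with another length. On simulated reads for 21834 genes that had given whole reads with the merged exon length, 100.00% were returned exactly. Symbols with another length, Rhox5 among them, were not simulated. Floors of 3 reads cover counting error only, and the 95% confidence intervals of fold changes come from the spread between embryos.

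Genes with at least 1 TPM in at least 4 embryos were compared by limma 3.58.1 (R 4.3.3) on log2(TPM + 1), with trend and a single genotype term (2-sided), Benjamini-Hochberg adjusted over all tested genes, threshold 0.05. Fold changes are on the TPM + 1 scale, which understates those of low genes. Single genes had an exact permutation test over 70 assignments, 2-sided, whose smallest p is 0.0286. In simulated data 71 of 100 genes changed 1.5-fold and 86 of 100 changed 2-fold were called, with 6 unchanged genes. Each gene was drawn independently there, so shifts that many genes share in an embryo were absent. These shares need not hold for the real embryos. Named are the 9 genes, up to 6 of the most abundant genes of a marker list, the prolactin-family genes at 1 TPM or more, the 5 genes most like each member at 10 TPM or more, and Xist; others named were chosen after their values were seen. The genes and lists were chosen with earlier results of these data known. Alternatives were other pseudocounts, filters and scaling, array weights, no trend, a replicate block and leaving out each embryo; chosen after seeing the data were voom on recovered reads, sex as a term, and leaving out mutants 3 and 4 or 1 and 2.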

Additional observations from a re-analysis of the deposited data

Results flagged for a closer look

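Within a group of 4 embryos, a value was singled out when its gap to the nearest other embryo was a larger part of the group's range, on the log2(TPM + 1) scale, than Dixon's 95% critical value for 4 values, which chance gives in about 1 of 20 groups. Of 26 groups, 2 held such a value, and Tpbpa in WT, at 0 in all 4 embryos, had no range to examine. Tpbpa in mutant 2 lay apart from the other mutants (ratio of gap to range 0.864), at 0.412 TPM or 16 reads against 1 to 3 reads. Rhox5 in WT 3 lay apart from the other WT embryos (ratio 0.838), at 9.07 TPM against 3.09 to 3.73 TPM, and the yolk sac sum was also highest among WT in that embryo, at 302 TPM; its part in the level of Rhox5 was not tested.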

How the results depend on the processing

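Of 177 values of the 9 genes under an alternative, 172 kept their direction and stayed short of the threshold, with a lowest adjusted p of 0.104. The 5 that turned sign were all of Prl3b1, at -0.0075 with array weights, -0.042 without WT 2, -0.0857 without mutant 1, -0.014 without mutant 3 and -0.0412 without mutants 1 and 2; single embryos left out gave a range up to 0.10, without mutant 4. The number of the 9 genes called was 0 in every setting tried. The number of all genes called ranged from 0 to 1 when single embryos were left out, the 1 being found without mutant 2. It was 3 without mutants 3 and 4 and 3369 without mutants 1 and 2, both chosen after seeing the data, and the cause was not tested. At an unadjusted p under 0.05, 3 of the 9 genes became 1 without WT 4 and 6 without mutants 3 and 4. Prl3c1, Tpbpa and Gcm1 gave no value with a filter of 1 TPM in 2 embryos. With the replicate block the log2 fold change of Prl8a2 was again 2.86 and 0 genes were called. The replicate numbers do not pair embryos: same-numbered embryos correlated at -0.0618, 0.0398, -0.194 and -0.245 after centring, and none correlated best with its own number. Median-ratio scaling moved the median of all genes from -0.04 to 0.002. Litter and genotype cannot be told apart, and p-values measure the spread between these embryos. Low read numbers limit Prl3c1, Tpbpa and Gcm1.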

Other observations

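Globins of definitive red cells were measured as a further reading of maternal blood. Hbb-bs was at 126 to 271 TPM in WT and at 347, 255, 620 and 84.8 TPM in mutants 1 to 4, and Hbb-bt at 61.9 to 161 TPM in WT and at 89.6, 68.6, 166 and 25.4 TPM in mutants 1 to 4. Both were highest in mutant 3, the embryo with the most granzyme transcripts, and lowest in mutant 4. Embryonic red cells can express these genes too, and the share of maternal cells was not tested.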
